A study of Mus musculus with 9 samples.

Results

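The subject here is 10 genes of the BCL-2 family, which decides whether a cell keeps its mitochondria intact or dies by apoptosis, measured by bulk RNA sequencing of mouse retina. The genes were taken by symbol from a deposited table of 26683 genes: Bcl2, Bcl2l1, Mcl1, Bcl2a1b, Bax, Bak1, Bcl2l11, Bbc3, Pmaip1 and Bid, and 10 of 10 were found. The 9 libraries fall into 3 groups of 3. Gel mice had oxygen-induced retinopathy (OIR: high oxygen stunts the young retinal vessels, and abnormal ones sprout later in room air) and received the hydrogel PCC1/PHCF, loaded with procyanidin C1 (PCC1), into the vitreous on postnatal day 15. PBS mice had OIR and received phosphate-buffered saline by the same route on the same day. Normoxic mice were kept without OIR, and no injection is mentioned for them. All retinas were taken on postnatal day 17, and strain, sex and the number of animals per library are not given in the sources used here. There was no group with the hydrogel alone, so the drug and its carrier cannot be told apart, and neither can OIR and the injection in comparisons with Normoxic. The labels do not say that replicates are separate animals, so p-values measure only the spread between these samples, which may be technical.

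BCL-2 family proteins act by binding each other at the outer mitochondrial membrane. The survival proteins BCL-2 (Bcl2), BCL-XL (Bcl2l1), MCL-1 (Mcl1) and A1 (Bcl2a1b) hold in check the effectors BAX (Bax) and BAK (Bak1), which otherwise form pores that release cytochrome c and start the caspases. The BH3-only proteins BIM (Bcl2l11), PUMA (Bbc3), NOXA (Pmaip1) and BID (Bid) sense stress and release or activate the effectors. Many senescent cells lean on BCL-2, BCL-XL or MCL-1 to survive, and several senolytic drugs, which remove such cells, are inhibitors of these proteins. PCC1 is presented as a senolytic in the title of the series. In the developing retina BAX is needed for the normal death of surplus neurons.

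The libraries held 29324142 to 35663470 counts each. Levels are in CPM (counts scaled to the library total), and 1 CPM stands for 29 to 36 counts. Of 14 markers of inner retinal neurons all passed the filter on low counts, and neutrophil genes were near 0 (8 genes summing to 1.5 to 2.87 CPM, with Ly6g at 0 in 8 of 9 libraries). PBS 3 and Gel 1 stood apart from their groups by a trend with gene length. Spearman's correlation, across genes, of length with the deviation of a library from its group was -0.49 in PBS 3 and 0.32 in Gel 1, against 0.32 and 0.41 in PBS 1 and PBS 2 and -0.29 and -0.20 in Gel 2 and Gel 3, and it was -0.05 to 0.03 in Normoxic. The members range in length from 764 bases (Bcl2a1b) to 11982 bases (Bcl2l11), as implied by the deposited FPKM (the count scaled to library total and gene length). Results are therefore given below with and without PBS 3 and Gel 1 where that matters. These libraries were picked from the same data, and leaving them out tends to narrow the spread within groups that the test uses. A call gained only in that setting carries little weight.

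Per unit of length, the effector Bax was the most abundant of the 10 and the survival gene Bcl2l1 came next. Bax stood at 37.1 to 58.3 FPKM over the 9 libraries, above 92.2% of the 17362 genes that passed the filter on low counts. Bcl2l1 stood at 26 to 30.6 FPKM and did not overlap Bax. The other effector, Bak1, at 10.5 to 16.3 FPKM, was above Mcl1, at 8.22 to 11.2 FPKM, in 9 of 9 libraries although the ranges overlapped. The BH3-only genes followed, with Bbc3 at 2.69 to 6.06 FPKM, Bid at 2.07 to 3.48 FPKM and Bcl2l11 at 1.28 to 2.32 FPKM. Neighbours among these 3 overlapped, with Bbc3 above Bid in 8 libraries and Bid above Bcl2l11 in 9. Bcl2 itself, at 0.578 to 1.12 FPKM, lay below all of these. Bcl2a1b ran from 0.0403 to 1.91 FPKM, the widest span of the 10 in proportion, and Pmaip1 had the lowest mean, at 0.0695 to 0.292 FPKM. Bcl2a1b was above Pmaip1 in 8 of 9 libraries and above Bcl2 in 4, with overlapping ranges. Bcl2l1 made up 70.7% to 73.1% of the summed FPKM of the 4 survival genes in Gel, 65.9% to 69.9% in PBS and 70.9% to 74% in Normoxic. That sum leaves out the survival gene Bcl2l2, which is not among the 10 and was higher than Bcl2l1, at 39.3 to 45.8 FPKM. The share is therefore one of these 4 genes only.

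**Figure D1:**
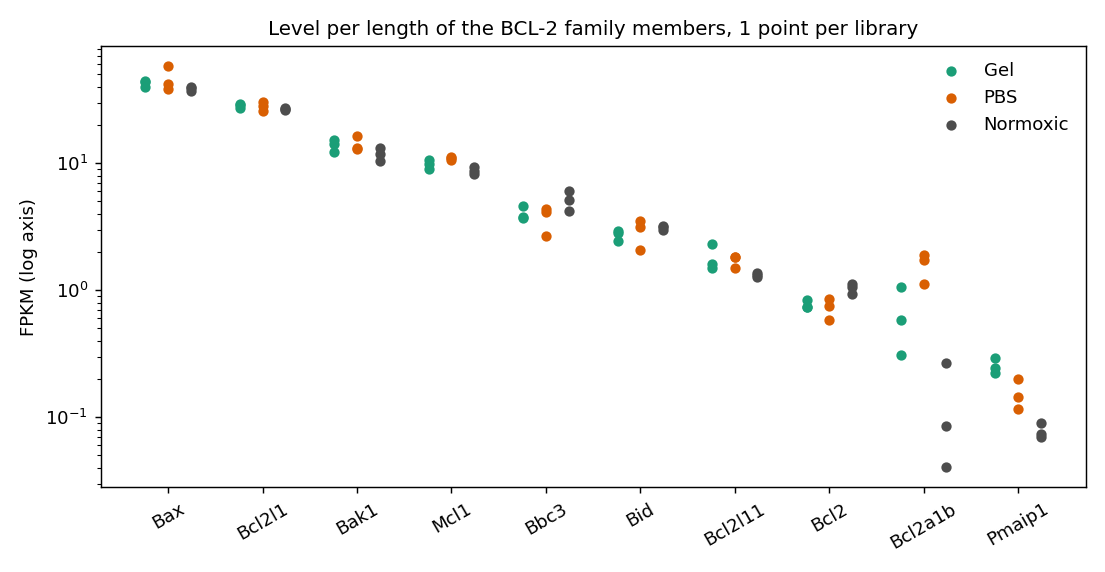
Level per length (FPKM, log axis) of the 10 BCL-2 family members, ordered by mean, with 1 point per library and Gel, PBS and Normoxic side by side. Bax and Bcl2l1 stood highest, Bcl2a1b ran from 0.0403 to 1.91 FPKM and Pmaip1 did not pass 0.292 FPKM.

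The comparison of PBS with Normoxic asks what OIR, with a saline injection, changes in this family. Of the 10 members, 1 was called (edgeR quasi-likelihood test, Benjamini-Hochberg adjusted p under 0.05 over all genes tested): Bcl2a1b, which was 12.1-fold higher in PBS. In the same test 6.34% of all genes were called, 4.31% higher and 2.03% lower. At an unadjusted p under 0.05 there were 6 members against 21.4% of all genes. The groups did not overlap for 5 members, 4 with PBS above and 1 with PBS below, against 29% of all genes, 14.9% above and 14.1% below. The members had a median log2 fold change of 0.28 against 0.01 over all genes tested. The count of called genes in this comparison was 1101, and without Normoxic 1, 2 or 3 it was 475, 455 and 494.

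Bcl2a1b (Entrez 12045) encodes A1-b, a survival protein made mainly by blood-derived cells and known as an NF-kB target. It had 0.236, 0.813 and 0.445 CPM in Gel, 0.86, 1.33 and 1.46 CPM in PBS, and 0.205, 0.0308 and 0.0653 CPM in Normoxic. The 3 groups did not overlap, with PBS highest and Normoxic lowest, but Gel 1 stood close to Normoxic 1. These values rest on few counts, 7, 29 and 15 in Gel, 27, 39 and 52 in PBS, and 6, 1 and 2 in Normoxic. In PBS versus Normoxic its log2 fold change was 3.60 ± 0.65 (SE), a fold of 12.1 with a 95% interval of 4.47 to 32.8 (edgeR adjusted p = 0.00876). The call ended without Normoxic 3 (log2 fold change 3.39, edgeR adjusted p = 0.0525), and without Normoxic 1 the log2 fold change was 4.57, in a range of 3.16 to 4.57 over the fits without 1 library. The gene passed the filter through 5 libraries of PBS and Gel and none of Normoxic, and a gene tested on that ground is bound to differ. With no filter, where every gene with a count in any library enters the test, its adjusted p was 0.00133 (edgeR). That value rests on the same few counts.

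Bcl2a1b has near-identical copies, and reads can be split between them in counting. The sum over Bcl2a1a, Bcl2a1b and Bcl2a1d was 18, 29 and 15 counts in Gel, 29, 43 and 58 in PBS, and 6, 2 and 2 in Normoxic. In Gel 1 the copies Bcl2a1a and Bcl2a1d held 5 and 6 of the 18 counts, while in Gel 2 and Gel 3 both were at 0. With the 3 copies summed to 1 gene, an alternative chosen after seeing the data, the difference between PBS and Normoxic was 3.59 on the log2 scale. That sum too passed the filter through the injected libraries.

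Markers of microglia and macrophages moved with Bcl2a1b. Of 16 such markers 12 were called higher in PBS than in Normoxic and 0 lower, against 4.31% of all genes called higher, and their median log2 fold change was 1.70. Their summed level was 156 to 208 CPM in Gel, 213 to 314 CPM in PBS and 81.3 to 94.3 CPM in Normoxic, with no marker at 0 in any library. The 9 lymphocyte markers in the table summed to 3.53 to 4.42 CPM in Gel, 3.34 to 5.68 CPM in PBS and 1.47 to 2.12 CPM in Normoxic. Relative to Csf1r, the growth factor receptor of these cells, Bcl2a1b had 7.06, 22.8 and 12.7 counts per 1000 Csf1r counts in Gel, 30, 40.9 and 40.3 in PBS, and 14, 2.35 and 4.28 in Normoxic. By this ratio PBS lay above the other groups, while Gel overlapped Normoxic. Csf1r itself was no lower in Gel than in PBS (33.4 to 35.6 CPM in Gel, 28.7 to 36.3 CPM in PBS), unlike the sum of the 16 markers. Per 1000 counts of all 16 markers, Bcl2a1b had 1.51, 3.9 and 2.19 counts in Gel, 4.04, 6.08 and 4.66 in PBS, and 2.52, 0.367 and 0.693 in Normoxic, so Gel 2 came close to PBS 1. Some markers of other cell types showed the same order, PBS above Gel above Normoxic. In Gel, PBS and Normoxic, 10 pericyte and smooth muscle markers summed to 226 to 288, 316 to 450 and 139 to 165 CPM. The glial gene Gfap averaged 106, 265 and 21.7 CPM in these groups. It was 1 of 10 Muller glia and astrocyte markers, whose sum did not show this order (4410 to 5780, 4600 to 5900 and 4590 to 4950 CPM). Of these 10 markers 3 were called higher and 2 lower in PBS than in Normoxic, against 4.31% and 2.03% of all genes. The sum of 10 endothelial markers did not show this order (422 to 444, 379 to 436 and 359 to 409 CPM). Taken singly, 5 endothelial markers were called higher and 1 lower in PBS than in Normoxic, with a median log2 fold change of 0.87. Gel had 3 called higher than Normoxic and 0 lower, with a median of 0.77. Between the injected groups 0 were called, and the median of Gel relative to PBS was 0.06. The part of any of these cell types in the Bcl2a1b difference was not tested. In whole retina, more cells of a type and more RNA per cell cannot be told apart.

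**Figure D2:**
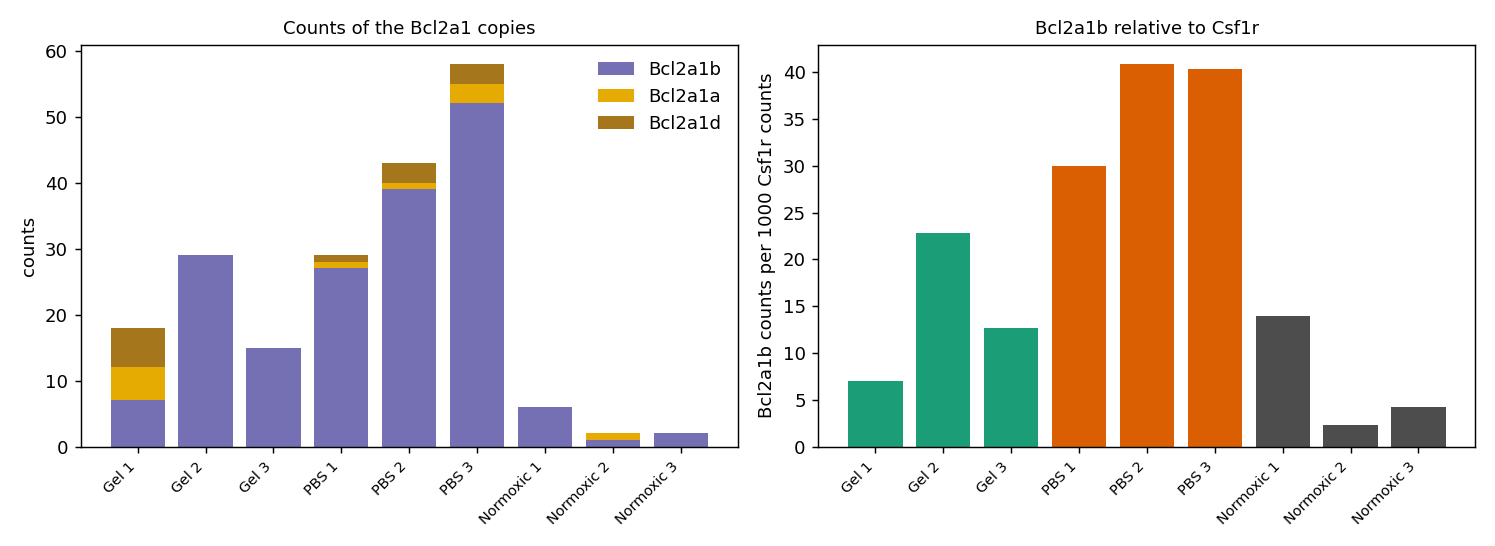
Left, counts of Bcl2a1b and its near-identical copies Bcl2a1a and Bcl2a1d in each library, stacked. Right, Bcl2a1b counts per 1000 Csf1r counts. The 3 PBS libraries stood at 30 to 40.9 per 1000, above each Gel library (at most 22.8) and each Normoxic library (at most 14).

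By a fixed measure of likeness, the root mean square difference of centred log2 CPM over the 9 libraries, the genes nearest to Bcl2a1b among 13539 were Cd52 (0.426), Capg (0.478) and Uhrf1 (0.497), against a median of 1.387 over the candidates. Cd52 encodes a surface glycoprotein of leukocytes, Capg a protein that caps actin filaments, and Uhrf1 a factor that maintains DNA methylation through replication.

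The DNA before the start of Bcl2a1b is shown with that of Mcl1 and Bcl2l11, the 2 other members whose PBS values all lay above Normoxic at over 1 CPM, because differences in RNA level are read against it. The windows come from RefSeq (build GRCm38.p6, plus strand) and end before the first base that RefSeq or GENCODE annotates as transcribed. They lie at chr9:89199023-89199208 for Bcl2a1b, chr3:95658471-95658720 for Mcl1 and chr2:128125788-128126037 for Bcl2l11, written 5′ to 3′. Capitals mark matches on either strand to GGG, 5 bases of any kind and CC (an NF-kB pattern) or to GGGCGG (a GC box), which overlap at some places.
Bcl2a1b: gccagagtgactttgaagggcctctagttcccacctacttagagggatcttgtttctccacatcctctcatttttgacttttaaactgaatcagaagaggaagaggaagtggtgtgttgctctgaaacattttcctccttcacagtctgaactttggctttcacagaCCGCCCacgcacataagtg
Mcl1: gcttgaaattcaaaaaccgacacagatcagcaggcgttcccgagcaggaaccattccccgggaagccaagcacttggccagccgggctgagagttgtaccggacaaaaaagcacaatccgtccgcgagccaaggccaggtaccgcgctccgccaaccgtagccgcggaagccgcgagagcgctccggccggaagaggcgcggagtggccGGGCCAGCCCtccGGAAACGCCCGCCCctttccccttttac
Bcl2l11: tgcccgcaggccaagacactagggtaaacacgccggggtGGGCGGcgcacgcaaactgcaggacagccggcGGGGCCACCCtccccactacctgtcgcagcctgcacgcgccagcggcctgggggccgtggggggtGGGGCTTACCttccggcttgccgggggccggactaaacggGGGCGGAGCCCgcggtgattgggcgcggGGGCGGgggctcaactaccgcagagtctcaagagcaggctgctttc

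In the 250 bases before the RefSeq start, the NF-kB pattern matched 0 times for Bcl2a1b, 2 times for Mcl1 and 4 times for Bcl2l11, and 45.8% of 32851 promoter windows of that length hold at least 1 match. The GC box matched 1, 1 and 3 times, and 32.7% of windows hold it. The patterns TTCNNNGAA (STAT factors, in 7.02% of windows), TATAAA (the TATA box, 12.4%) and ACGTG (the core of the hypoxia response element, 16.6%), matched none of the 3. The windows also differ in base composition, with 44.8% G and C for Bcl2a1b, 64.4% for Mcl1 and 72% for Bcl2l11. RefSeq gives Bcl2l11 a second start, whose window held 2 NF-kB matches and 2 GC boxes. A match is a description of these letters only.

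Mcl1 (Entrez 17210) encodes a short-lived survival protein, and only its RNA was measured here. It had 78.5, 86.6 and 93.2 CPM in Gel, 97.3, 95.2 and 93.3 CPM in PBS, and 81.5, 76.1 and 71.7 CPM in Normoxic. All PBS values lay above all Normoxic values, Gel 3 stood just under the lowest PBS library, and Gel overlapped Normoxic. In PBS versus Normoxic its log2 fold change of 0.33 ± 0.10 (SE) missed the threshold (edgeR adjusted p = 0.0775). It passed with DESeq2 (adjusted p = 0.0249), with the gene length trend removed (edgeR adjusted p = 0.0345) and without PBS 3 and Gel 1 (edgeR adjusted p = 0.0117), and the range over the alternatives was 0.0117 to 0.264.

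Bcl2 (Entrez 12043), the founding survival gene, was lower in both injected groups than in Normoxic, without passing the test. It had 5.45, 6.17 and 5.43 CPM in Gel, 6.24, 5.55 and 4.25 CPM in PBS, and 8.22, 6.89 and 7.84 CPM in Normoxic. Neither injected group overlapped Normoxic, and PBS 3 was the lowest library. Its log2 fold change was -0.51 ± 0.17 (SE) in PBS versus Normoxic and -0.42 ± 0.17 in Gel versus Normoxic, with edgeR adjusted p of 0.117 and 0.322. No alternative brought either past the threshold, with adjusted p down to 0.0629 and 0.128. Markers of inner retinal neurons, 14 genes, moved the same way: they summed to 3250 to 3340 CPM in Gel, 2970 to 3250 CPM in PBS and 4040 to 4200 CPM in Normoxic, 4 of 14 were called lower in PBS than in Normoxic, against 2.03% of all genes, and their part in the Bcl2 values was not tested.

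Bcl2l1 (Entrez 12048), whose product BCL-XL guards neurons, was close to level. It had 88.7, 94.9 and 93.7 CPM in Gel, 92, 84.1 and 99.2 CPM in PBS, and 84.8, 88.8 and 86.6 CPM in Normoxic. The groups PBS and Normoxic overlapped, with a fold of 1.07 and a 95% interval of 0.908 to 1.25 (edgeR adjusted p = 0.629). Mcl1 per Bcl2l1, by FPKM, was 0.329, 0.339 and 0.37 in Gel, 0.393, 0.421 and 0.35 in PBS, and 0.357, 0.318 and 0.308 in Normoxic, with PBS 3 within the Normoxic range.

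**Figure D3:**
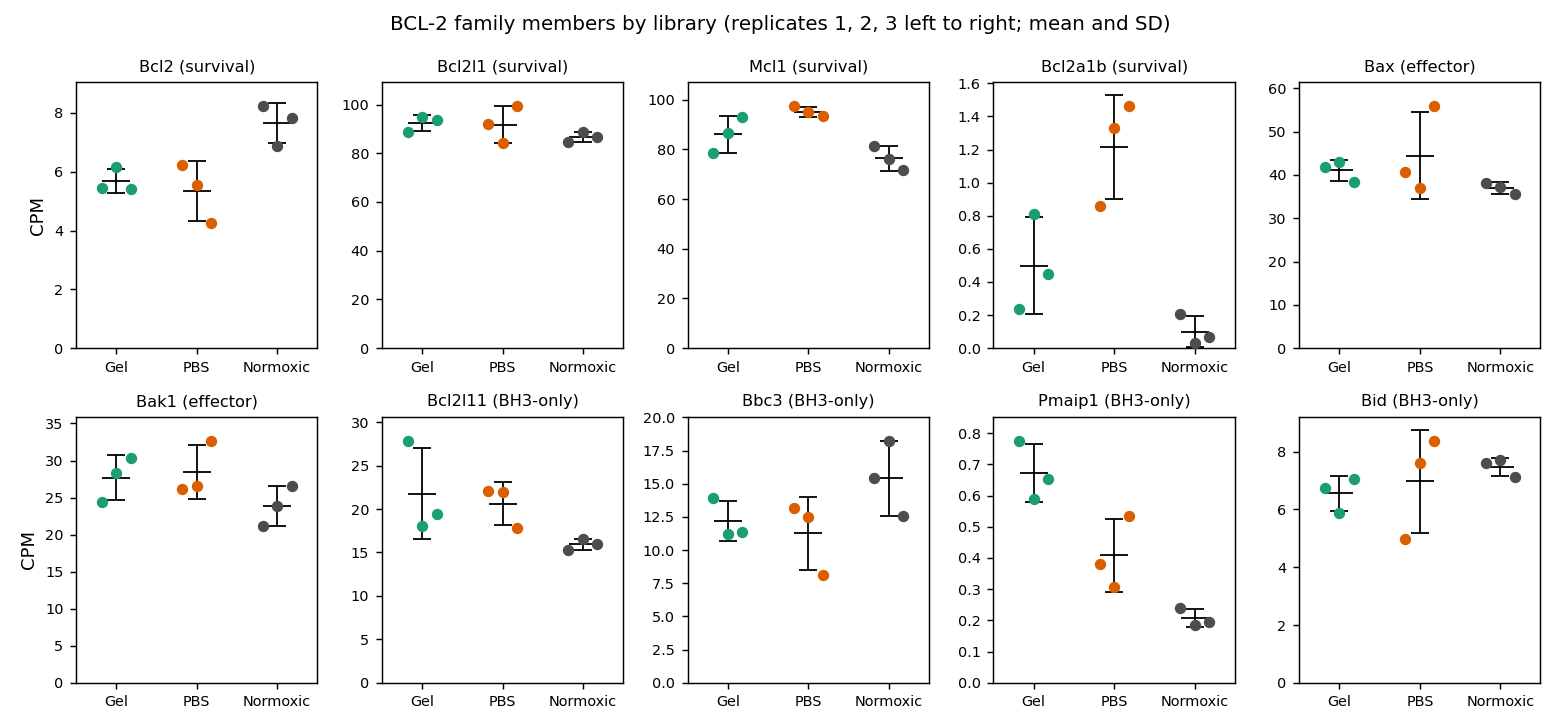
CPM of each member in each library (points, replicates 1 to 3 from left to right), with the mean and SD over 3 libraries, for Gel, PBS and Normoxic. The y axes start at 0 and differ between genes. Bcl2a1b was at 0.86 to 1.46 CPM in PBS and at most 0.205 CPM in Normoxic, while Bcl2l1 stayed between 84.1 and 99.2 CPM in the 9 libraries.

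The effectors were not called in PBS versus Normoxic. Bax (Entrez 12028) had 41.9, 42.9 and 38.4 CPM in Gel, 40.6, 36.9 and 55.8 CPM in PBS, and 38.2, 37.3 and 35.5 CPM in Normoxic. PBS 3 stood far above the other PBS libraries, which lay at the Normoxic level or just above it. Bax is among the shortest genes tested, shorter than all but 5.6% of them, and PBS 3 was the library with relatively more counts in short genes. PBS versus Normoxic gave Bax a log2 fold change of 0.28 ± 0.16 (SE, edgeR adjusted p = 0.331), with a range of 0.03 to 0.41 over the alternatives and 0.05 without PBS 3. Bak1 (Entrez 12018) had 24.4, 28.3 and 30.4 CPM in Gel, 26.1, 26.5 and 32.6 CPM in PBS, and 21.1, 23.9 and 26.6 CPM in Normoxic. Its groups overlapped in every comparison, and its log2 fold change in PBS versus Normoxic was 0.27 ± 0.15 (edgeR adjusted p = 0.325).

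The ratio of Bax to Bcl2 is often quoted as a rough gauge of readiness for apoptosis, and it is given here as a description with no test. By FPKM it was 59, 53.3 and 54.2 in Gel, 49.9, 50.9 and 101 in PBS, and 35.7, 41.5 and 34.7 in Normoxic. Every injected library lay above every Normoxic library, and PBS 3 stood alone at the top. The ratio sets a gene of 958 bases against one of 7349 bases, so the length trend of PBS 3 enters it directly. The ratio of Bax to Bcl2l1, a gene of 3242 bases, was 1.60, 1.53 and 1.39 in Gel, 1.50, 1.48 and 1.91 in PBS, and 1.52, 1.42 and 1.39 in Normoxic. There the groups overlapped, again with PBS 3 at the top.

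Of the BH3-only genes, Bcl2l11 and Pmaip1 were higher and Bbc3 was lower in PBS than in Normoxic, without passing the test. Bcl2l11 (Entrez 12125) encodes BIM, which binds all survival members of the family. It had 27.8, 18.1 and 19.4 CPM in Gel, 22.1, 22 and 17.8 CPM in PBS, and 15.3, 16.5 and 16 CPM in Normoxic. All 6 injected libraries lay above Normoxic, and Gel 1 was highest by a wide margin. PBS versus Normoxic gave it a log2 fold change of 0.38 ± 0.16 (SE, edgeR adjusted p = 0.2). It passed with the length trend removed (0.54, edgeR adjusted p = 0.0194) and without PBS 3 and Gel 1 (0.45, edgeR adjusted p = 0.0123), in a range of 0.0123 to 0.383 over the alternatives.

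Bbc3 (Entrez 170770) encodes PUMA, a target of p53. It had 13.9, 11.2 and 11.4 CPM in Gel, 13.2, 12.5 and 8.1 CPM in PBS, and 15.4, 18.2 and 12.6 CPM in Normoxic. The groups overlapped through Normoxic 3, and PBS 3 was lowest. The log2 fold change in PBS versus Normoxic was -0.45 ± 0.19 (SE, edgeR adjusted p = 0.206). Bcl2l11 per Bbc3, by FPKM, was 0.501, 0.407 and 0.427 in Gel, 0.42, 0.443 and 0.552 in PBS, and 0.25, 0.226 and 0.317 in Normoxic. Every injected library lay above every Normoxic one. This ratio is a description with no test, and it joins a member seen higher with one seen lower. It also sets a gene of 11982 bases against one of 3008 bases, so the length trend enters it.

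Pmaip1 (Entrez 58801) encodes NOXA, which mainly binds MCL-1 and A1. It had 0.774, 0.589 and 0.653 CPM in Gel, 0.382, 0.307 and 0.535 CPM in PBS, and 0.239, 0.185 and 0.196 CPM in Normoxic. The 3 groups did not overlap, with Gel highest and Normoxic lowest. The counts behind these values were 23, 21 and 22 in Gel, 12, 9 and 19 in PBS, and 7, 6 and 6 in Normoxic. Pmaip1 passed the filter through 5 libraries of Gel and PBS and none of Normoxic. Its log2 fold change was 1.00 ± 0.43 (SE) in PBS versus Normoxic and 1.69 ± 0.42 in Gel versus Normoxic, with edgeR adjusted p of 0.214 and 0.0857. Over the alternatives the adjusted p in Gel versus Normoxic ran from 0.0388 to 0.31, and values under 0.05 carry little weight for a gene that was tested because it was high in Gel and PBS.

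Bid (Entrez 12122), which links death receptors to mitochondria once caspase 8 cuts its product, was not called in any comparison. It had 6.73, 5.89 and 7.06 CPM in Gel, 4.97, 7.6 and 8.36 CPM in PBS, and 7.6, 7.72 and 7.12 CPM in Normoxic. PBS overlapped Normoxic and spread on both sides of it, while all Gel libraries lay just under it. The log2 fold change in PBS versus Normoxic was -0.09 ± 0.20 (SE, edgeR adjusted p = 0.82), and it was 0.11 without PBS 1.

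Gel and PBS were compared to see what the hydrogel with PCC1 changes in OIR retina. No member was called by edgeR (0 of 10, with 1 at an unadjusted p under 0.05), and DESeq2 and limma-voom called 0 as well. Over all genes the share called by edgeR was 0%, while 5.54% had an unadjusted p under 0.05, and DESeq2 called 60 genes and limma-voom 0. The groups did not overlap for 3 members (2 with Gel below, Bcl2a1b and Mcl1, and 1 with Gel above, Pmaip1), against 7.89% of all genes, 5.15% below and 2.73% above. The median log2 fold change of the members was -0.02, against -0.01 over all genes tested. Without PBS 3 and Gel 1, edgeR called 837 genes and again 0 members. Leaving out single PBS libraries gave 2, 12 and 6 called genes (without PBS 1, 2 and 3).

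Bcl2a1b had the smallest p of the 10 in Gel versus PBS. It averaged 0.498 ± 0.292 CPM in Gel and 1.22 ± 0.317 CPM in PBS (SD, n = 3 each), and its log2 fold change was -1.27 ± 0.53 (SE, edgeR adjusted p = 0.848). With the 3 copies summed it was -1.10, and without PBS 3 and Gel 1 it was -0.75 (edgeR adjusted p = 0.817 and 0.5). Beside it, 0 of the 16 microglia and macrophage markers were called in Gel versus PBS by edgeR, with 4 at an unadjusted p under 0.05 and a median log2 fold change of -0.52. Pmaip1 had a log2 fold change of 0.69 ± 0.39 (edgeR adjusted p = 0.987), and it was 0.49 to 0.98 over the alternatives.

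The intervals show which sizes of change remain possible in Gel versus PBS. For Bcl2l1 the fold was 1.01 with a 95% interval of 0.856 to 1.18. Mcl1 had a fold of 0.904 with an interval of 0.778 to 1.05, and Bax a fold of 0.919 with an interval of 0.722 to 1.17. Bcl2 had a fold of 1.07 with an interval of 0.818 to 1.39, and Bcl2l11 a fold of 1.06 with an interval of 0.828 to 1.35. The interval of Bcl2a1b ran from 0.186 to 0.93 and that of Pmaip1 from 0.896 to 2.92, so these low genes could differ by much more. For Bax, Bak1, Bcl2l11, Bbc3 and Bid the direction turned without PBS 3 and Gel 1, with log2 fold changes of 0.10, 0.19, -0.21, -0.16 and 0.08 in that setting.

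**Figure D4:**
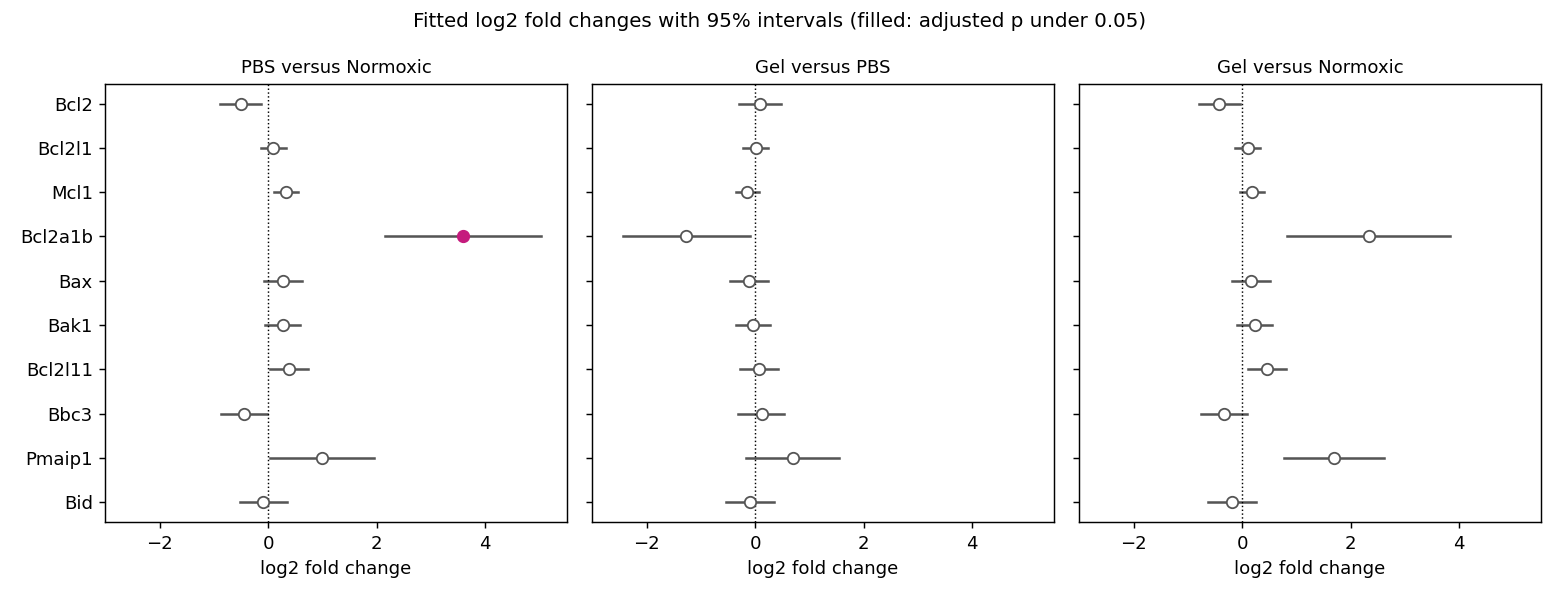
Fitted log2 fold changes of the 10 members (points) with 95% intervals (lines) for the 3 pairs of groups. A filled point marks an adjusted p under 0.05, which was reached once, by Bcl2a1b in PBS versus Normoxic (3.60, interval 2.16 to 5.03).

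Gel and Normoxic were compared for the distance that remained after treatment. No member was called by edgeR (0 of 10, with 4 at an unadjusted p under 0.05: Bcl2, Bcl2a1b, Bcl2l11 and Pmaip1), limma-voom called 0 and DESeq2 called 2, Bcl2a1b and Pmaip1 (adjusted p = 0.0349 and 0.0493). In the edgeR fit both of these genes passed the filter through injected libraries alone. DESeq2 was run without that filter, on every gene with a count in any library, and its calls rest on the same few counts. Over all genes edgeR called 1.41%, 1.12% higher and 0.288% lower, and 13.2% had an unadjusted p under 0.05. DESeq2 called 769 genes here, against 245 by edgeR. The groups did not overlap for 6 members, 4 with Gel above and 2 with Gel below, against 23.9% of all genes, 11.1% above and 12.8% below. Bcl2a1b was 5.03-fold higher in Gel than in Normoxic by the fit (log2 fold change 2.33 ± 0.68, SE, edgeR adjusted p = 0.142). It passed edgeR without PBS 3 and Gel 1 (adjusted p = 0.0157), and its range over the alternatives was 0.0157 to 0.465. The log2 fold change of Bcl2a1b was 3.30 without Normoxic 1 and 1.76 without Gel 2. Bcl2l11 had a log2 fold change of 0.46 ± 0.16 (edgeR adjusted p = 0.22), which was 0.25 without Gel 1 and passed with the length trend removed (0.53, adjusted p = 0.0459). This comparison shares the Gel libraries with one and the Normoxic libraries with the other of the comparisons above. The called genes numbered 245, and 47 to 98 without 1 Normoxic library, 91 and 95 without Gel 2 or Gel 3, and 735 without PBS 3.

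The rest of the family was read from a list of 16 genes, of which 14 were in the table and 11 passed the filter. In PBS versus Normoxic edgeR called 0 of the 11 (2 at an unadjusted p under 0.05), limma-voom 0 and DESeq2 2, and the median log2 fold change was 0.23. Over all genes edgeR called 6.34%, 21.4% had an unadjusted p under 0.05 and the median was 0.01, while DESeq2 called 1858 genes. Bnip3, a BH3-like protein of mitophagy that hypoxia induces, had the smallest p. It had 54.3, 87.5 and 90.9 CPM in Gel, 147, 91.6 and 133 CPM in PBS, and 84.4, 73.9 and 82 CPM in Normoxic, and PBS did not overlap the other groups. Its log2 fold change was 0.64 ± 0.22 (SE) in PBS versus Normoxic and -0.68 ± 0.22 in Gel versus PBS, with edgeR adjusted p of 0.112 and 0.65. Bok, an effector-like member, had a log2 fold change of 0.50 ± 0.22 in PBS versus Normoxic (edgeR adjusted p = 0.223). PBS 3 was highest at 14.4 CPM, PBS 2 had 10.2 CPM, and PBS 1 at 8.41 CPM lay below Normoxic 1 at 8.87 CPM. In Gel versus PBS edgeR, DESeq2 and limma-voom called 0 of the 11 (1 at an unadjusted p under 0.05, against 5.54% of all genes by edgeR).

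A pair of family genes outside the rule for naming are given because of their levels, and were chosen after their values were seen. Bcl2l2, which encodes the survival protein BCL-w, stood at 39.3 to 45.8 FPKM in the 9 libraries, above Bcl2l1 in each. Bik, a BH3-only gene that did not pass the filter, had 6, 7 and 5 counts in Gel, 21, 8 and 8 in PBS, and 1, 1 and 1 in Normoxic.

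Of 18 genes that act after the mitochondrial step edgeR called 1 higher and 1 lower in PBS than in Normoxic, with 4 at an unadjusted p under 0.05. Over all genes 4.31% were called higher and 2.03% lower, and 21.4% had an unadjusted p under 0.05. The list had a median log2 fold change of 0.18, against 0.01 over all genes. Birc3, an inhibitor of apoptosis induced by NF-kB, rose in PBS and had 0.572, 1.04 and 1.04 CPM in Gel, 1.21, 1.29 and 1.07 CPM in PBS, and 0.239, 0.185 and 0.425 CPM in Normoxic (log2 fold change 2.07 ± 0.42, SE, edgeR adjusted p = 0.0156). The injected groups lay above Normoxic, with Gel 2 and Gel 3 just under PBS and Gel 1 well below it. Dffa, the inhibitor of the nuclease that cuts DNA in apoptosis, fell in PBS, with means of 32.3 ± 2.65 CPM against 43 ± 0.179 CPM in Normoxic (SD, n = 3 each, edgeR adjusted p = 0.04). The call of Birc3 ended without Normoxic 1 or 2 (adjusted p up to 0.0805), and that of Dffa without any 1 library other than Gel 1 (up to 0.152). In Gel versus PBS edgeR, DESeq2 and limma-voom called 0 of the 18 (0 at an unadjusted p under 0.05), and in Gel versus Normoxic edgeR and limma-voom called 0 and DESeq2 1 (5 at an unadjusted p under 0.05 by edgeR). Over all genes 5.54% and 13.2% had an unadjusted p under 0.05 by edgeR in these comparisons.

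On the death receptor route that leads to BID, 2 of 9 tested genes rose in PBS versus Normoxic and 0 fell, against 4.31% and 2.03% of all genes, with a median log2 fold change of 0.58 against 0.01 over all genes. Tnfrsf1a, the main receptor of TNF, had 19, 20 and 18.4 CPM in Gel, 36.1, 25.7 and 23.2 CPM in PBS, and 9.65, 9.54 and 9.08 CPM in Normoxic. The 3 groups did not overlap, and the log2 fold change was 1.60 ± 0.16 (SE, edgeR adjusted p = 0.00051) in PBS versus Normoxic and 1.03 ± 0.16 (edgeR adjusted p = 0.0103) in Gel versus Normoxic. In Gel versus PBS edgeR, DESeq2 and limma-voom called 0 of the 9 (1 at an unadjusted p under 0.05, against 5.54% of all genes by edgeR). There Tnfrsf1a had a log2 fold change of -0.56 ± 0.15 that did not pass (edgeR adjusted p = 0.592), and without PBS 3 and Gel 1 it passed (-0.66, adjusted p = 0.0344). Casp8, the protease that cuts BID, had 1.82, 1.91 and 3.08 CPM in Gel, 2.99, 2.39 and 3.52 CPM in PBS, and 0.512, 0.984 and 1.05 CPM in Normoxic (log2 fold change 1.81 ± 0.35 in PBS versus Normoxic, edgeR adjusted p = 0.012). Without Normoxic 1 the adjusted p of Casp8 was 0.0519, and the call of Tnfrsf1a in Gel versus Normoxic ended without any 1 Normoxic library or Gel 2 (up to 0.0721).

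Among transcription factors known to act on BCL-2 family genes, 4 of 15 rose in PBS versus Normoxic and 0 fell, against 4.31% and 2.03% of all genes, and the median log2 fold change was 0.21 against 0.01 over all genes. Bcl3, a nuclear partner of NF-kB that is no member of the family despite its name, had 1.99, 0.813 and 2.19 CPM in Gel, 16.5, 8.35 and 1.94 CPM in PBS, and 0.443, 0.615 and 0.327 CPM in Normoxic. It rose by 4.25 ± 0.71 on the log2 scale in PBS versus Normoxic (edgeR adjusted p = 0.00608), a call that limma-voom did not make (0.0822), and by 3.44 without PBS 1. PBS 3 stood within the Gel range, and in Gel versus PBS Bcl3 had a log2 fold change of -2.42 ± 0.62 (SE, edgeR adjusted p = 0.576), which passed without PBS 3 (-2.89, adjusted p = 0.0426) and without PBS 3 and Gel 1 (-3.03, adjusted p = 0.0106), and which was -1.60 without PBS 1 (adjusted p = 0.824). Stat3, which raises Mcl1 and Bcl2l1 in several cell types, rose by 1.12 ± 0.20 on the log2 scale in PBS versus Normoxic (edgeR adjusted p = 0.00859). Ddit3, the stress factor CHOP, rose by 0.72 ± 0.14, and Relb, a subunit of NF-kB, rose by 0.76 ± 0.19 (edgeR adjusted p = 0.0134 and 0.0377). The edgeR call of Stat3 ended without Normoxic 2 (0.0506), that of Ddit3 without Normoxic 1 or 2 (up to 0.0795), and that of Relb without any 1 library other than Gel 1 (up to 0.141). In Gel versus PBS edgeR, DESeq2 and limma-voom called 0 of the 15 (2 at an unadjusted p under 0.05, against 5.54% of all genes by edgeR). Stat3 had a log2 fold change of -0.41 there (edgeR adjusted p = 0.939), and of -0.69 without PBS 3 and Gel 1, which passed (0.0299). In Gel versus Normoxic edgeR called Ddit3 alone (log2 fold change 0.67, adjusted p = 0.0466), and that call ended without any 1 of Normoxic 1, 2 or 3, PBS 1 or 2, or Gel 1 or 2 (up to 0.247). Stat3 and Bcl3 missed the threshold in that comparison (edgeR adjusted p = 0.13 and 0.295). Both passed edgeR without PBS 3 and Gel 1 (0.0082 and 0.0228), without PBS 3 (0.0208 and 0.0379) and with only the 2 groups fitted (0.00406 and 0.0475). Stat3 also passed edgeR without PBS 1 (0.0157) and with no filter (0.0442), and passed with DESeq2 (0.0303). In the other alternatives they did not pass, with edgeR adjusted p up to 0.367 for Stat3 and 0.607 for Bcl3.

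Genes that control the turnover of MCL-1 and other family proteins gave no call. Of 10 tested, edgeR, DESeq2 and limma-voom called 0 in each of the 3 comparisons, with 0 at an unadjusted p under 0.05 by edgeR. Dynll1, a dynein light chain that binds BIM and BMF, had the smallest p in PBS versus Normoxic, with means of 129 ± 34.6 CPM against 97.8 ± 9.03 CPM in Normoxic (SD, n = 3 each, log2 fold change 0.42, edgeR adjusted p = 0.266). PBS 3 stood at 169 CPM, while PBS 1 and PBS 2 were each at 109 CPM, next to Normoxic 3 at 108 CPM.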

How the data were processed

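Bulk RNA sequencing of retina gave 9 libraries, 3 per group. The deposited counts are whole numbers per gene and library, and the deposited FPKM were made by the authors. The submitters' processing notes name build GRCm39, RSEM 1.3.1, DESeq2 1.4.5 and Bowtie2 without saying what each did. It is not stated if RSEM's estimates were rounded to give the counts. Each FPKM equals the count over the library total and 1 length per gene, so FPKM served for levels between genes, for gene length and for an alternative. No gene coordinates of GRCm39 are given, since the reference used here is GRCm38.

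Counts were analysed in R 4.3.3 with edgeR 4.0.16: filterByExpr (minimum count 10, which here asks for about 0.319 CPM in at least 3 libraries) kept 17362 genes (65.1%), libraries were scaled by TMM, and a quasi-likelihood F test was run in 1 model of the 3 groups. Benjamini-Hochberg adjustment covered every kept gene, and a call means an adjusted p under 0.05. The SE is the log2 fold change over the square root of F, and 95% intervals use the t quantile of the fit. DESeq2 1.42.0 and limma 3.58.1 served as alternatives. The common dispersion was 0.0312. Figures were drawn with matplotlib 3.10.9.

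The members and lists were chosen with earlier results of these data known. All 10 members are described. From each other list, called genes (up to 6) and up to 4 others with the smallest p could be named. Replicate numbers were not used to pair samples in the main fit. Correlations of same-numbered deviations were 0.33, -0.21 and 0.36 in Gel versus PBS. They ran from -0.10 to -0.04 in the comparisons with Normoxic. Whether numbers pair Gel with PBS samples is not settled by these values. Protein sequences and the promoter of Pmaip1 were not used here.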

Additional observations from a re-analysis of the deposited data

How the results depend on the processing

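The 20 alternatives gave 598 log2 fold changes for the 10 members, of which 568 kept their direction and their side of the threshold, 18 changed sign, 1 lost its call and 11 gained one, and the cause was not tested. The counts of called members were 1 for PBS versus Normoxic, 0 for Gel versus PBS and, for Gel versus Normoxic, 0. Counts below keep that order. DESeq2 gave 2, 0 and 2, limma on log2(FPKM + 0.1) gave 1, 0 and 1, removal of the length trend gave 3, 0 and 1, and leaving out PBS 3 and Gel 1 together gave 3, 0 and 2. Over the 9 fits without 1 library the counts of members ran from 0 to 1, 0 to 0 and 0 to 0. The counts over all genes were 1101, 0 and 245. They were 1258, 24 and 389 with no filter on low counts, 1858, 60 and 769 with DESeq2, 1482, 3 and 438 with the length trend removed, 792, 0 and 643 with only the 2 groups in the fit, and 2110, 837 and 3546 without PBS 3 and Gel 1. Without 1 library they ran from 455 to 1184, 0 to 12 and 47 to 735.

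In Gel versus PBS signs changed with the length trend removed (Bax 0.06, Bak1 0.04, Bcl2l11 -0.01) and without PBS 3 and Gel 1 (Bax 0.10, Bak1 0.19, Bcl2l11 -0.21, Bbc3 -0.16, Bid 0.08). Without 1 library the log2 fold changes ran from -0.02 to 0.22 for Bcl2, -0.07 to 0.10 for Bcl2l1, -0.25 to 0.11 for Bax, -0.10 to 0.11 for Bak1, -0.13 to 0.19 for Bcl2l11, -0.05 to 0.25 for Bbc3 and -0.29 to 0.10 for Bid, and in PBS versus Normoxic from -0.27 to 0.11 for Bid. With the replicate block the counts of members stayed 1, 0 and 0, and those of all genes were 1050, 0 and 227. Under the block the calls of Dffa and Relb in PBS versus Normoxic (edgeR adjusted p = 0.0658 and 0.0607) and of Ddit3 in Gel versus Normoxic (0.0712) were lost. By the labels the samples share only a number. Of 6 samples per comparison, 0, 4 and 0 correlated best with their own number. Bcl2a1b and Pmaip1 rest on under 60 counts per library, which limits their precision. Pmaip1 in PBS versus Normoxic and Bcl2a1b in Gel versus Normoxic had no value with only the 2 groups in the fit, where the filter removed them.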
